A study of Mus musculus with 1 sample.

Results

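The 34 genes described here encode 22 collagen chains and 12 proteins that modify, escort, trim or crosslink collagen. The rule that chose them from the 32285 genes listed names gene symbols and no counts, but it was set with earlier results of these data known. They were followed in 1 single-cell RNA sequencing library of *Scap* f/f mice, in which the *Scap* alleles carry loxP sites but no Cre recombinase is present, so that *Scap* is intact. The library came from pancreata of 5 to 6 mice, male and female in equal number and 2 weeks old, combined before capture, and the library of *Scap* knockout pancreata was not analysed here. Counts are of unique molecular identifiers (UMIs), so that a transcript captured at its 3′ end counts once. The deposited table held 51540177 UMIs in 11789 barcodes, with 500 to 174899 UMIs per barcode, and 10947 cells with a median of 2650 UMIs passed the limits of more than 800 and fewer than 100000 UMIs and less than 15% mitochondrial UMIs.

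Fibrillar collagens are trimers of chains that are hydroxylated and folded in the endoplasmic reticulum, secreted as procollagens, trimmed at their ends and then crosslinked into fibres. Type I, III and V chains form the fibres of interstitial connective tissue, type VI chains form beaded microfilaments around cells, and type IV chains form the sheet-like network of basement membranes under epithelium, endothelium, muscle and nerve. In the pancreas the interstitial matrix is known as a product of fibroblasts, which include the stellate cells that drive scarring in pancreatitis and cancer.

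Cells were assigned by the UMIs of marker genes, none of which is one of the 34. A cell joined a class with at least 3 UMIs from at least 2 markers of it and at least 3-fold more of these UMIs than of any other list. This gave 5813 fibroblasts, 49 smooth muscle cells, 51 pericytes, 206 endothelial cells, 260 mesothelial cells and 63 Schwann cells, beside 362 epithelial and 1779 immune cells, while 2364 cells joined no class. The class names stand for the marker lists and are not an annotation by the authors. Of the 9 fibroblast markers, *Lum*, *Dpt* and *Ogn* are matrix genes, and the gate without them gave 4437 fibroblasts. Each of the 6 stromal classes carried its own list at 4561 to 8511 CPM (UMIs of a gene or list per 1000000 UMIs of the class), epithelial cells theirs at 1406 CPM and immune cells theirs at 6262 CPM, and the fibroblast list, at 6497 CPM in fibroblasts, was at 149 to 1204 CPM in the other 5 stromal classes. The gates chose cells by these same lists, so these values do not check the classes. Pericytes also carried smooth muscle markers at 1201 CPM and endothelial markers at 711 CPM. Pericyte markers stood at 841 CPM in endothelial cells and 659 CPM in smooth muscle cells. Red blood cell transcripts stood at 19728 CPM in pericytes and 16562 CPM in Schwann cells against 4575 CPM in fibroblasts. The part of these transcripts in the results below was not tested. Replicates were lacking, so no test was run, and intervals are exact 95% intervals that cover counting error only, and they do not measure the spread between mice.

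The collagen chains took 5.50% of all UMIs of fibroblasts (5.49 to 5.51), more than in any other class. Mesothelial cells followed with 2.53% (2.50 to 2.56). Schwann cells had 1.23% (1.17 to 1.30), endothelial cells 0.910% (0.896 to 0.925), pericytes 0.886% (0.831 to 0.944) and smooth muscle cells 0.724% (0.691 to 0.758). The intervals of endothelial cells and pericytes overlap, and those of the other classes lie apart. Immune cells, used as a class that should lack most of these chains, had 0.132%, and epithelial cells 0.173%. Between single fibroblasts the share ran from 0.0944% to 25.7%, with a median of 5.03% and the middle 50% of cells between 3.79% and 6.65%. Every fibroblast, smooth muscle cell, pericyte, mesothelial cell and Schwann cell had a collagen UMI. None was found in 1 of 206 endothelial cells, 2 of 362 epithelial cells and 332 of 1779 immune cells. The 12 processing genes followed a like order at the top, with 0.375% of UMIs in fibroblasts and 0.304% in mesothelial cells against 0.0992% to 0.135% in the other 4 stromal classes and 0.0151% in immune cells.

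**Figure D1:**
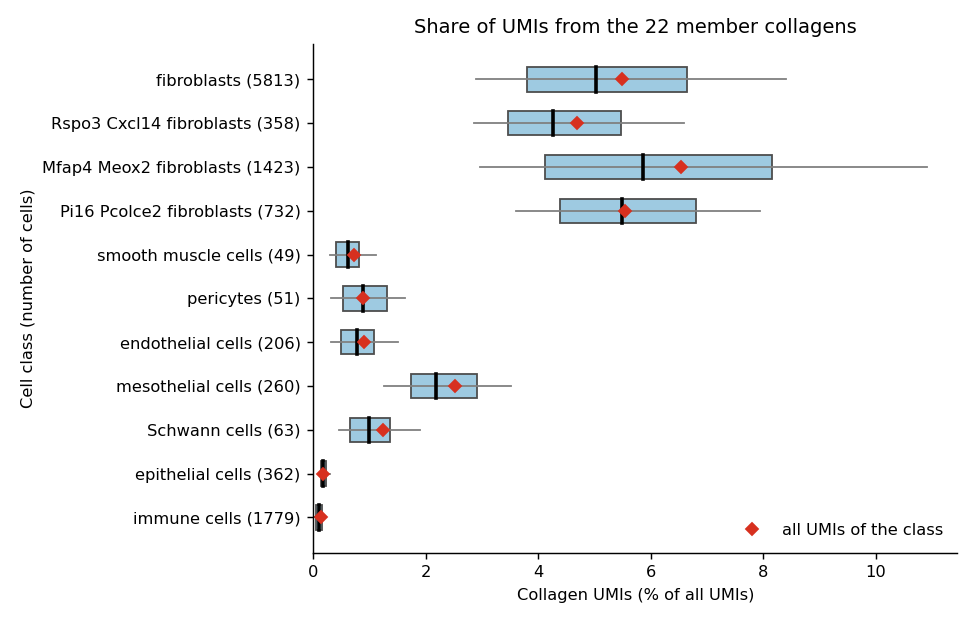
Share of UMIs from the 22 member collagens in single cells of each class, in percent. Boxes span the middle 50% of cells with the median as a line, thin lines run from the 10th to the 90th percentile, and diamonds give the share over all UMIs of the class. Fibroblasts and their 3 subsets lie to the right of every other class, at 4.69% to 6.54% over all UMIs, and mesothelial cells follow at 2.53%.

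Collagen UMIs in the other classes were set beside a measure of fibroblast RNA in them. The 5 fibroblast genes *Rspo3*, *Cxcl14*, *Mfap4*, *Pi16* and *Pcolce2*, which played no part in the lineage gates, stood at 2.43% of their fibroblast level in mesothelial cells, 2.58% in Schwann cells, 3.02% in endothelial cells, 5.18% in smooth muscle cells and 6.07% in pericytes. Only 3 to 43 UMIs lie behind these values. The highest single gene of the 5 stood at 11.9%, 7.80%, 4.02%, 8.71% and 11.1% in the same order. The fibroblast marker list, used in the gates, stood at 1204, 149, 255, 592 and 517 CPM, against 6497 CPM in fibroblasts. The collagen total stood at 46.0%, 22.4%, 16.6%, 13.2% and 16.1% of the fibroblast level in the same order. These values lie above the upper bounds of the 5-gene measure, which reach 13.2% in pericytes. In smooth muscle cells the lower bound of the collagen total, 12.6%, compares with an upper bound of 9.05% for the 5 genes. The total does not stand for each chain, and single chains were not set beside the measure. Of the 14182 collagen UMIs of endothelial cells, *Col4a1* and *Col4a2* gave 5868 and 2982, and *Col1a1* and *Col1a2* 711 and 580. Of the 959 in pericytes, *Col4a1* and *Col4a2* gave 248 and 146, and *Col1a1* and *Col1a2* 62 and 113. In immune cells the collagens stood at 2.40% (2.34 to 2.46) and the 5 genes at 2.76% (2.27 to 3.33), and these intervals overlap. In epithelial cells the collagens, at 3.15% (3.09 to 3.20), lay slightly above the 5 genes, at 2.66% (2.29 to 3.08).

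**Figure D2:**
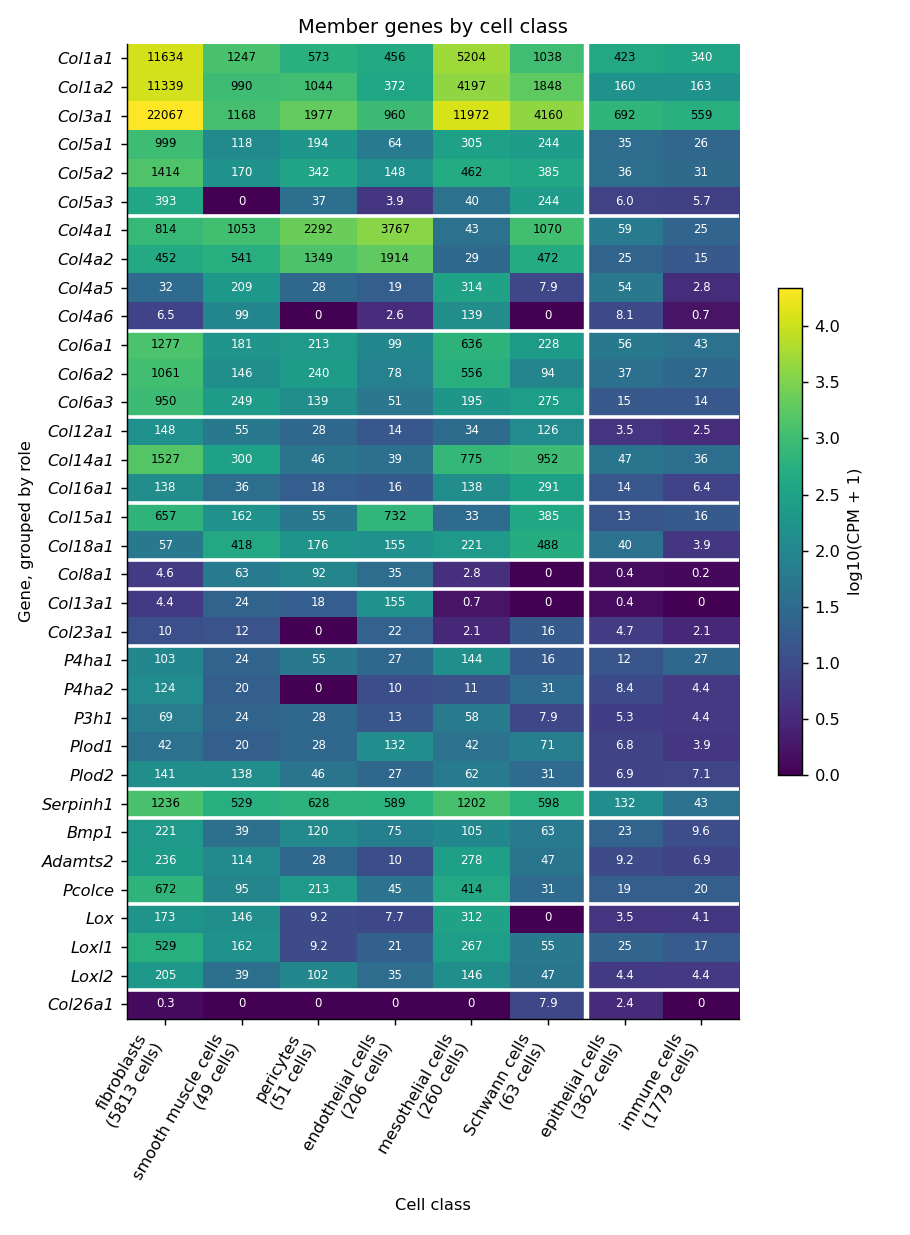
Level of each of the 34 genes in 8 cell classes of the *Scap* f/f library, as CPM (numbers) and log10(CPM + 1) (colour), with genes grouped by role. The fibril-forming chains at the top, apart from *Col5a3*, are brightest in fibroblasts and mesothelial cells. *Col5a3* is brightest in fibroblasts and Schwann cells, *Col4a1* and *Col4a2* in endothelial cells and pericytes, and *Col4a5* and *Col4a6* in mesothelial and smooth muscle cells.

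A gene was called enriched in a class where its level was at least 2-fold that of the next of the 6 stromal classes, among genes with a mean of at least 20 CPM over them. By this rule 32 of the 34 genes were tested and 9 were enriched, 7 in fibroblasts, 1 in endothelial cells and 1 in Schwann cells. Of all 7540 genes tested, 1.80% were enriched in fibroblasts, 3.34% in endothelial cells and 3.87% in Schwann cells. None of the 34 was enriched in smooth muscle cells, pericytes or mesothelial cells, where the shares of all genes were 3.17%, 1.68% and 3.0%. Without the 2-fold limit, 19 of the 32 were highest in fibroblasts, 5 each in endothelial and mesothelial cells, 2 in Schwann cells and 1 in pericytes. Of all genes tested, 9.85% were highest in fibroblasts, 18.2% in endothelial cells, 14.4% in mesothelial cells, 23.6% in Schwann cells, 17.8% in pericytes and 16.2% in smooth muscle cells, which led in none of the 32. These genes were not matched to the members in level. Counting error is larger in classes of few UMIs, with 108221 in pericytes and 127158 in Schwann cells against 20583567 in fibroblasts. Its part in these shares was not tested. The *Col6a1* call ended when only cells above 1500 UMIs were kept, when doublets were removed and when classes came from clusters, and that of *Col1a1* when classes came from clusters. Close to the limit lay *Col6a1* at 2.01-fold and *Col1a1* at 2.24-fold inside it, and *Loxl1* at 1.98-fold and *Col6a2* at 1.91-fold outside it.

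The fibril-forming chains were all highest in fibroblasts, and 4 of the 6 were enriched there. *Col1a1* and *Col1a2* encode the chains of type I collagen, the main fibre of skin, bone and scar. *Col1a1* stood at 11634 CPM in fibroblasts (11587 to 11680), 5204 in mesothelial cells, 1247 in smooth muscle cells, 1038 in Schwann cells, 573 in pericytes and 456 in endothelial cells, against 340 in immune cells. *Col1a2* gave 11339 CPM in fibroblasts, 4197 in mesothelial cells, 1848 in Schwann cells, 1044 in pericytes, 990 in smooth muscle cells and 372 in endothelial cells, against 163 in immune cells. The fibroblast level exceeded the mesothelial one 2.24-fold (2.18 to 2.29) for *Col1a1* and 2.70-fold (2.63 to 2.77) for *Col1a2*. *Col3a1*, the single chain of the type III collagen of pliable tissues, reached 22067 CPM in fibroblasts and 11972 CPM in mesothelial cells, a 1.84-fold difference (1.82 to 1.87) and thus outside the limit. In Schwann cells *Col3a1* stood at 4160 CPM, in pericytes at 1977, in smooth muscle cells at 1168 and in endothelial cells at 960. Immune cells had 559 CPM. Epithelial cells had 3180 *Col1a1*, 1201 *Col1a2* and 5200 *Col3a1* UMIs among 7519711 in all. Endothelial cells had 711, 580 and 1495 among 1557800.

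Detection in single cells set some, but not all, of the lower stromal classes apart from epithelial and immune cells. With every cell thinned to 800 UMIs, the lower depth limit, so that none was left out, *Col1a1* was found in 98.8% of fibroblasts, 92.7% of mesothelial cells, 59.2% of smooth muscle cells, 37.3% of pericytes, 36.5% of Schwann cells and 26.7% of endothelial cells (20.8 to 33.3). It was also found in 29.8% of epithelial cells (25.2 to 34.8) and 20.5% of immune cells (18.7 to 22.5). The endothelial share lay within the epithelial interval, and the intervals of pericytes (24.1 to 51.9) and Schwann cells (24.7 to 49.6) overlapped it. At this depth *Col1a1* detection thus did not set endothelial cells, pericytes or Schwann cells apart from a class that should lack it. Without thinning the shares were 99.9% of fibroblasts, 65.0% of endothelial, 93.1% of epithelial and 43.9% of immune cells, at median depths of 2764, 4127.5, 12246.5 and 1718 UMIs. For *Col1a2* the Schwann cell share was 66.7% (53.7 to 78.0) and the pericyte share 51.0% (36.6 to 65.2), against 13.3% of epithelial and 10.0% of immune cells. *Col3a1* was found in 85.7% of Schwann cells (74.6 to 93.3), against 45.9% of epithelial (40.6 to 51.1) and 31.4% of immune cells. Its shares in pericytes, 62.7% (48.1 to 75.9), smooth muscle cells, 46.9% (32.5 to 61.7), and endothelial cells, 45.6% (38.7 to 52.7), overlapped the epithelial interval. Unthinned, 79.4% of Schwann cells had a *Col1a2* UMI and 95.2% a *Col3a1* UMI.

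Type V chains co-assemble with type I collagen and limit the width of its fibres. *Col5a1* stood at 999 CPM in fibroblasts, 305 in mesothelial cells, 244 in Schwann cells, 194 in pericytes, 118 in smooth muscle cells and 64.2 in endothelial cells. *Col5a2* gave 1414, 462, 385, 342, 170 and 148 CPM in the same order. Both were enriched in fibroblasts, 3.28-fold (2.98 to 3.61) and 3.06-fold (2.83 to 3.31) over mesothelial cells. *Col5a3*, the remaining type V chain, had another order. It gave 393 CPM in fibroblasts and 244 CPM in Schwann cells (166 to 346, from 31 UMIs), a ratio of 1.61 (1.13 to 2.37). The level was 40.2 in mesothelial cells, 37.0 in pericytes and 3.85 in endothelial cells. Smooth muscle cells, where 3 UMIs stand for 11.8 CPM, had no UMI.

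The proportion of the type I chains varied between classes. In fibroblasts the ratio of *Col1a1* to *Col1a2* UMIs was 1.03 (1.02 to 1.03), and it was 1.24 (1.20 to 1.28) in mesothelial cells, 1.26 (1.06 to 1.49) in smooth muscle cells and 1.23 (1.10 to 1.37) in endothelial cells. Below 1 lay the ratios of pericytes, 0.549 (0.396 to 0.754), and Schwann cells, 0.562 (0.450 to 0.698). Immune and epithelial cells stood at 2.08 (1.90 to 2.28) and 2.65 (2.48 to 2.83), outside the range of the 6 stromal classes. Endothelial cells had the lowest levels of both chains among the 6 classes, and thus those nearest to the immune cell levels given above. The part of such background in the ratios was not tested. These are ratios of transcript ends and are compared between classes only, not read as the make-up of the protein.

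The 2 type IV pairs differed in their leading classes. *Col4a1* and *Col4a2* were highest in endothelial cells and pericytes, and *Col4a5* and *Col4a6* in mesothelial and smooth muscle cells. Smooth muscle cells still had more of the first pair than of the second. *Col4a1* and *Col4a2* encode the chains of nearly all basement membranes. *Col4a1* stood at 3767 CPM in endothelial cells (3671 to 3864), 2292 in pericytes (2015 to 2595), 1070 in Schwann cells, 1053 in smooth muscle cells, 814 in fibroblasts and 43.0 in mesothelial cells. *Col4a2* gave 1914, 1349, 472, 541, 452 and 29.1 CPM. Endothelial cells exceeded pericytes 1.64-fold (1.45 to 1.87) and 1.42-fold (1.20 to 1.69), so neither gene was called enriched, and the levels of Schwann and smooth muscle cells do not differ beyond their intervals. The mesothelial level of *Col4a1* was 0.0528 of that in fibroblasts (0.0405 to 0.0678), and it was found in 2.69% of thinned mesothelial cells (1.09 to 5.47) against 2.02% of immune cells (1.42 to 2.79). The unthinned shares were 16.5% and 5.06%, and the levels 43.0 CPM (33.0 to 55.1) and 25.2 CPM (20.7 to 30.4).

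*Col4a5* and *Col4a6* encode chains that assemble together in the basement membranes of smooth muscle and of some epithelia. *Col4a5* stood at 314 CPM in mesothelial cells (286 to 345) and 209 CPM in smooth muscle cells (157 to 274, from 53 UMIs), then at 31.6 in fibroblasts, 27.7 in pericytes, 19.3 in endothelial cells and 7.86 in Schwann cells. *Col4a6* gave 139 CPM in mesothelial cells (120 to 159) and 98.6 CPM in smooth muscle cells (63.8 to 146), 6.51 in fibroblasts and 2.57 in endothelial cells, and no UMI in pericytes or Schwann cells. Against fibroblasts the mesothelial level was 9.94-fold for *Col4a5* (8.80 to 11.2) and 21.3-fold for *Col4a6* (17.0 to 26.7). Mesothelial cells, the sheet that covers the organ, thus had the lowest levels of *Col4a1* and *Col4a2* among these 6 classes and the highest of *Col4a5* and *Col4a6*, though for *Col4a6* the ratio to smooth muscle cells, 1.41 (0.926 to 2.23), includes 1.

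The genes of each type IV pair are neighbours that point away from each other. In the GENCODE M21 annotation of GRCm38, *Col4a1* lies on the reverse strand of chromosome 8 from 11198423 to 11312826. *Col4a2* lies on the forward strand from 11312805 to 11449287, so that the annotated genes overlap by 22 bases at their starts. *Col4a6*, on the reverse strand of chromosome X from 141165403 to 141474076, and *Col4a5*, on the forward strand from 141475385 to 141689234, start 1308 bases apart. The *Col4a1* and *Col4a2* start regions are printed because the levels of these genes moved together across classes. They are the RefSeq windows from 250 bases before to 50 bases after each gene start in GRCm38.p6, at chr8:11312777-11313076 on the reverse strand and chr8:11312555-11312854 on the forward strand, 5′ to 3′, with the 78 bases that both windows share, in opposite directions, in capitals.
Col4a1: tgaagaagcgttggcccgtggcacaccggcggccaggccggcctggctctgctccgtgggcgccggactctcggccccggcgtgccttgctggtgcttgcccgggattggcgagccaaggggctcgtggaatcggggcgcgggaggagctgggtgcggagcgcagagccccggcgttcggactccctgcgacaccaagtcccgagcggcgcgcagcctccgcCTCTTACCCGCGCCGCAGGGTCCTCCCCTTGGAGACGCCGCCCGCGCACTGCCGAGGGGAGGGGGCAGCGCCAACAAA
Col4a2: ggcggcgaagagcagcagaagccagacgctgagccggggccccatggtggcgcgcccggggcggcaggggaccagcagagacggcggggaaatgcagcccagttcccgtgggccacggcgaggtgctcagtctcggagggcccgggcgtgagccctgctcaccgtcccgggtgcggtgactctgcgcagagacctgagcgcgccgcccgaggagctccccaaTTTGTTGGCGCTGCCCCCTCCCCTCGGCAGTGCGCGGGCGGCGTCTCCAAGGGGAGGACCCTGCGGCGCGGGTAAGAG

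Across classes *Col4a1* and *Col4a2* kept nearly 1 proportion. The ratio of *Col4a1* to *Col4a2* UMIs was 1.80 in fibroblasts (1.75 to 1.85), 1.97 in endothelial cells (1.88 to 2.06), 1.95 in smooth muscle cells (1.58 to 2.41), 1.70 in pericytes (1.38 to 2.10), 2.27 in Schwann cells (1.66 to 3.12) and 1.48 in mesothelial cells (0.982 to 2.24). The endothelial and fibroblast intervals lie apart by a small distance, while the other intervals overlap both. By contrast, the ratio of *Col4a5* to *Col4a6* was 4.86 in fibroblasts (4.03 to 5.90), above 2.27 in mesothelial cells (1.91 to 2.69) and 2.12 in smooth muscle cells (1.29 to 3.56).

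**Figure D3:**
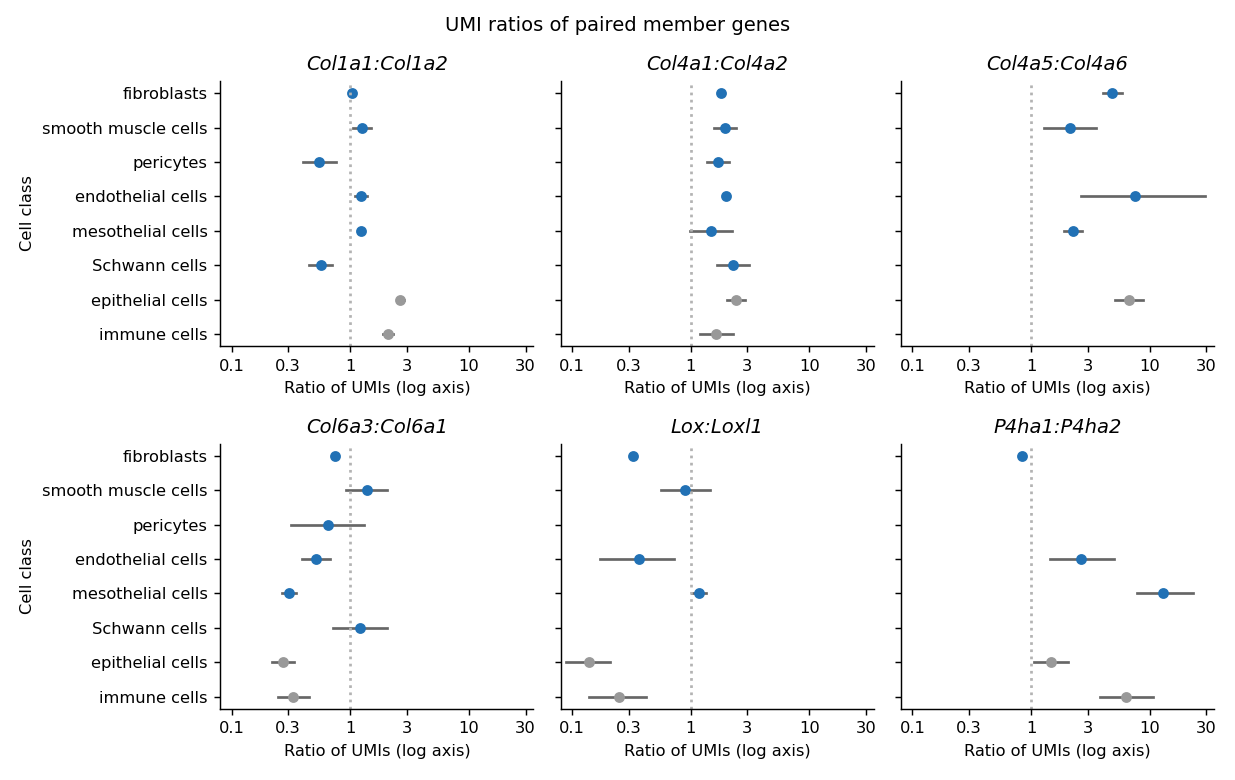
Ratio of UMIs of paired genes in each class on a log axis, with exact 95% intervals, for pairs with at least 20 UMIs in the class. Blue points are stromal classes and grey points epithelial and immune cells. *Col4a1*:*Col4a2* stays between 1.48 and 2.27 in the stromal classes, while *P4ha1*:*P4ha2* runs from 0.836 in fibroblasts to 13.0 in mesothelial cells.

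Start regions of the interstitial chains are shown for comparison, since *Col1a2* and *Col3a1* were the fibroblast-led chains with the closest cell-to-cell relation for which RefSeq gave a window. Of the 34 genes, 24 had at least 1 of 27 windows in the table, and the 10 without one included *Col1a1*. The *Col1a2* window, chr6:4505368-4505667 on the forward strand, has CCAAT or its reverse complement ATTGG in capitals. The *Col3a1* window, chr1:45311288-45311587 on the forward strand, has TATAAA in capitals.
Col1a2: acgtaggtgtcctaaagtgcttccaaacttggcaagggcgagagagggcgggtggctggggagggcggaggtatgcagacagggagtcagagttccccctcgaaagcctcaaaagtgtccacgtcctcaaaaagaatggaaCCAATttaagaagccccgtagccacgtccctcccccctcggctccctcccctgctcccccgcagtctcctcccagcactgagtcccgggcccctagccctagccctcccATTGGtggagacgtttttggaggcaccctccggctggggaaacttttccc
Col3a1: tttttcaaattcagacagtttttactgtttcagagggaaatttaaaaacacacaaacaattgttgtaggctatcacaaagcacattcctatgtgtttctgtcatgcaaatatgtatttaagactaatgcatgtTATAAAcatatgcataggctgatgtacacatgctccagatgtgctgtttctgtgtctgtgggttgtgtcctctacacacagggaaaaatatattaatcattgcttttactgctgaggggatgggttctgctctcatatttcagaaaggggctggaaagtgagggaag
On either strand, CCAAT occurred in 9 of the 27 windows (33.3%) and in 37.4% of all 32851 windows, and TATAAA in 4 of 27 (14.8%) against 13.6%. GGGCGG, the letters of a GC box, occurred in 21 of 27 windows (77.8%) against 35.7% of all. The median GC content was 62.3% in the 27 windows and 52.7% in all, with 37.7% in *Col3a1* and 74.0% in *Col4a1*. None of the 3 motifs contains another, and a match of letters is not a binding site.

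Type VI chains were highest in fibroblasts, and *Col6a1* and *Col6a3* were enriched there. *Col6a1* stood at 1277 CPM in fibroblasts, 636 in mesothelial cells, 228 in Schwann cells, 213 in pericytes, 181 in smooth muscle cells and 99.5 in endothelial cells. *Col6a2* gave 1061 CPM in fibroblasts and 556 CPM in mesothelial cells. *Col6a3*, the longest chain of the type VI trimer, gave 950 CPM in fibroblasts, 275 in Schwann cells (192 to 383), 249 in smooth muscle cells (191 to 318) and only 195 in mesothelial cells (173 to 219). The ratio of *Col6a3* to *Col6a1* was 0.744 in fibroblasts (0.730 to 0.758) and 0.307 in mesothelial cells (0.267 to 0.351). Mesothelial cells had *Col6a5*, a related chain outside the 34, at 219 CPM against 4.62 CPM in fibroblasts. *Col6a6*, another such chain, was instead higher in fibroblasts, with a ratio to mesothelial cells of 1.31 (1.17 to 1.47) from 5913 and 316 UMIs.

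The fibril-associated chains, which sit on the surface of fibres, split between fibroblasts and Schwann cells. *Col14a1* stood at 1527 CPM in fibroblasts, 952 in Schwann cells (790 to 1137), 775 in mesothelial cells, 300 in smooth muscle cells, 46.2 in pericytes and 38.5 in endothelial cells, and the last of these compares with 36.0 in immune cells. *Col12a1* gave 148 CPM in fibroblasts and 126 CPM in Schwann cells (71.9 to 204, from 16 UMIs), which do not differ beyond their intervals. *Col16a1* was enriched in Schwann cells, at 291 CPM (205 to 401, from 37 UMIs) against 138 CPM in both mesothelial cells and fibroblasts, 2.11-fold (1.44 to 3.01) over the former. That call ended when only cells above 1500 UMIs were kept, when 5 marker UMIs were required and when classes came from clusters.

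*Col15a1* and *Col18a1* encode basement membrane proteoglycans, the second of which is the source of endostatin. *Col15a1* stood at 732 CPM in endothelial cells (690 to 776), 657 in fibroblasts (646 to 668), 385 in Schwann cells, 162 in smooth muscle cells, 55.4 in pericytes and 32.6 in mesothelial cells. The order of the leading pair turned when means over cells were used. *Col18a1* had nearly the opposite place in fibroblasts. It gave 488 CPM in Schwann cells (374 to 625), 418 in smooth muscle cells (342 to 506), 221 in mesothelial cells, 176 in pericytes, 155 in endothelial cells and 57.0 in fibroblasts, the lowest of the 6. The Schwann and smooth muscle levels do not differ beyond their intervals.

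The low chains had narrow ranges of cells. *Col13a1*, a collagen anchored in the cell membrane, was enriched in endothelial cells, at 155 CPM (136 to 176) against 18.5 CPM in pericytes, where 2 UMIs give a ratio of 8.37 (2.29 to 69.5), and 23.7 CPM in smooth muscle cells, where 6 UMIs give a ratio of 6.53 (2.96 to 18.0). With pericytes set to 3 UMIs, as the rule does, the fold was 5.58. After thinning it was found in 9.71% of endothelial cells (6.03 to 14.6) and in 0 of 1779 immune cells, which allows up to 0.207%. Before thinning 40.8% of endothelial cells had a UMI. *Col8a1*, a short chain known from vessel walls, gave 92.4 CPM in pericytes (44.3 to 170, from 10 UMIs), 63.1 in smooth muscle cells (36.1 to 103), 35.3 in endothelial cells (26.6 to 46.0) and 4.62 in fibroblasts. *Col23a1*, also anchored in the membrane, reached 21.8 CPM in endothelial cells (15.1 to 30.5) and 10.3 in fibroblasts, and *Col26a1* had 7 UMIs in fibroblasts and 1 in Schwann cells, both too low for the enrichment rule.

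Among the enzymes that hydroxylate collagen, the chains' helix-stabilising prolyl 4-hydroxylases divided fibroblasts from mesothelial cells. *P4ha2* was enriched in fibroblasts, at 124 CPM (119 to 128) against 31.5 in Schwann cells from 4 UMIs, 19.7 in smooth muscle cells, 11.1 in mesothelial cells, 10.3 in endothelial cells and none in pericytes, and the ratio to Schwann cells was 3.93 (1.53 to 14.4). *P4ha1* gave 144 CPM in mesothelial cells (125 to 165), 103 in fibroblasts (99.0 to 108), 55.4 in pericytes, 27.0 in endothelial cells, 23.7 in smooth muscle cells and 15.7 in Schwann cells, and immune cells had 27.3. The ratio of *P4ha1* to *P4ha2* UMIs was thus 0.836 in fibroblasts (0.789 to 0.886) and 13.0 in mesothelial cells (7.82 to 23.2). *Plod1*, a lysyl hydroxylase, was highest in endothelial cells, at 132 CPM (115 to 152), but the ratio to the next class, Schwann cells at 70.8 CPM from 9 UMIs, was 1.87 (0.965 to 4.14) and includes 1, and fibroblasts had 42.0 CPM. *Plod2*, which hydroxylates the lysines of the chain ends, gave 141 CPM in fibroblasts and 138 in smooth muscle cells (96.2 to 192) but 27.0 in endothelial cells. *P3h1*, a prolyl 3-hydroxylase, stood at 69.0 CPM in fibroblasts and 57.6 in mesothelial cells (45.9 to 71.4).

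The collagen chaperone gene was found in all 6 stromal classes, and each of the genes for trimming procollagen outside the cell was highest in fibroblasts or in mesothelial cells. *Serpinh1*, which encodes the chaperone HSP47, gave 1236 CPM in fibroblasts (1221 to 1252) and 1202 in mesothelial cells (1146 to 1260), a ratio of 0.973 for the latter (0.926 to 1.02), and 529 to 628 CPM in the other 4 stromal classes against 42.7 in immune cells. Mesothelial cells thus matched fibroblasts in *Serpinh1* within counting error while their collagen total was 46.0% of the fibroblast level. *Bmp1*, the proteinase that removes the C-terminal propeptides, stood at 221 CPM in fibroblasts and 120 in pericytes (64.0 to 205), and its enhancer *Pcolce* at 672 CPM in fibroblasts, 414 in mesothelial cells, 213 in pericytes and 44.9 in endothelial cells. *Adamts2*, which removes the N-terminal propeptides, gave 278 CPM in mesothelial cells (252 to 307), 236 in fibroblasts (230 to 243) and 114 in smooth muscle cells. *Pcolce* overlaps *Fbxo24* on the same strand in the annotation. Other members, among them *Col1a2* and *Col3a1*, also overlap an annotated gene on their strand. The effect of these overlaps on the counts was not tested.

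The lysyl oxidases, which start the crosslinks of collagen and elastin, differed in their leading class. *Lox* stood at 312 CPM in mesothelial cells (284 to 342), 173 in fibroblasts (167 to 179), 146 in smooth muscle cells (103 to 201), 9.24 in pericytes and 7.70 in endothelial cells, with no UMI in Schwann cells, which allows up to 23.6 CPM. *Loxl1*, known for its part in elastic fibres, gave 529 CPM in fibroblasts, 267 in mesothelial cells, 162 in smooth muscle cells, 55.0 in Schwann cells and 21.2 in endothelial cells, where immune cells had 16.7. *Loxl2* gave 205 CPM in fibroblasts, 146 in mesothelial cells and 102 in pericytes (50.7 to 182). The ratio of *Lox* to *Loxl1* was 0.327 in fibroblasts (0.315 to 0.339), 0.902 in smooth muscle cells (0.563 to 1.44) and 1.17 in mesothelial cells (1.02 to 1.34).

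Fibroblasts were then divided by 3 pairs of marker genes into 358 *Rspo3* *Cxcl14*, 1423 *Mfap4* *Meox2* and 732 *Pi16* *Pcolce2* fibroblasts, while 3300 joined no subset, 1186 of them with no UMI of these genes. The median depths were 3464.5, 2889 and 4226 UMIs. The collagen share was 4.69% (4.66 to 4.73), 6.54% (6.52 to 6.56) and 5.55% (5.53 to 5.58). Of the 34 genes 29 were tested, and 3 were enriched in 1 subset, all in *Mfap4* *Meox2* fibroblasts. Over all 6596 genes tested, 1.33% were enriched in that subset, 0.652% in *Rspo3* *Cxcl14* and 2.77% in *Pi16* *Pcolce2* fibroblasts.

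The 3 enriched genes were *Lox*, *Col4a5* and *Col16a1*. *Lox* stood at 285 CPM in *Mfap4* *Meox2* fibroblasts (270 to 300), 115 in *Rspo3* *Cxcl14* (98.5 to 134) and 103 in *Pi16* *Pcolce2* fibroblasts (92.9 to 114). *Col16a1* gave 219, 89.2 and 104 CPM, and *Col4a5* 56.3, 25.4 and 23.5 CPM in this order. The type I chains had the same leading subset below the 2-fold limit. *Col1a1* stood at 16610 CPM there, 8500 in *Rspo3* *Cxcl14* and 10617 in *Pi16* *Pcolce2* fibroblasts, and *Col1a2* at 15508, 9124 and 10663. *Col3a1* instead led in *Pi16* *Pcolce2* fibroblasts, at 25431 CPM against 23036 and 18061, so that the ratio of *Col3a1* to *Col1a2* UMIs was 2.38 there (2.36 to 2.41) and 1.49 in *Mfap4* *Meox2* fibroblasts (1.47 to 1.50).

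*Pi16* *Pcolce2* fibroblasts stood apart by what they had little of. *Col15a1* gave 101 CPM there (91.1 to 112), against 1020 CPM in *Rspo3* *Cxcl14* (969 to 1073) and 922 CPM in *Mfap4* *Meox2* fibroblasts (896 to 949), a 9.13-fold difference from the latter (8.22 to 10.2). *Col4a1* gave 377, 1303 and 907 CPM and *Col4a2* 210, 715 and 523 CPM in the same order, and *Pcolce* 335, 714 and 810 CPM. The same subset led in *Col14a1*, at 2228 CPM (2181 to 2276) against 1467 in *Mfap4* *Meox2* and 1005 in *Rspo3* *Cxcl14* fibroblasts, and in *Loxl2*, at 298 CPM against 133 and 224. After thinning, *Col15a1* was found in 7.65% of *Pi16* *Pcolce2* fibroblasts (5.83 to 9.82), 49.8% of *Mfap4* *Meox2* and 57.8% of *Rspo3* *Cxcl14* fibroblasts, and *Col14a1* in 81.7%, 64.1% and 50.8%. Before thinning the *Col15a1* shares were 25.8%, 83.6% and 89.4% and the *Col14a1* shares 99.5%, 90.8% and 87.2%.

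*Rspo3* *Cxcl14* fibroblasts led in 13 of the 29 genes (44.8%), none by 2-fold, and in 39.4% of all genes tested. *Adamts2* was lowest there, at 140 CPM (121 to 161) against 319 in *Mfap4* *Meox2* and 299 in *Pi16* *Pcolce2* fibroblasts. *Col5a3* was lowest in *Mfap4* *Meox2* fibroblasts, at 222 CPM (209 to 235) against 474 and 452. *Serpinh1* stood at 1301 CPM in *Mfap4* *Meox2* and 1305 in *Pi16* *Pcolce2* fibroblasts and was lower, at 981 CPM (931 to 1034), in *Rspo3* *Cxcl14* fibroblasts. Each of the 3 calls depended on the setting: *Lox* and *Col16a1* lost theirs when subsets came from clusters, and *Col16a1* also with the looser 2-fold gate. *Col4a5* lost its call with the authors' upper limit of 10000 UMIs, with a fibroblast gate that left out matrix genes, when subset cells needed 3 marker UMIs and when means over cells replaced sums. Under a limit of 3-fold none of the 3 was called.

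**Figure D4:**
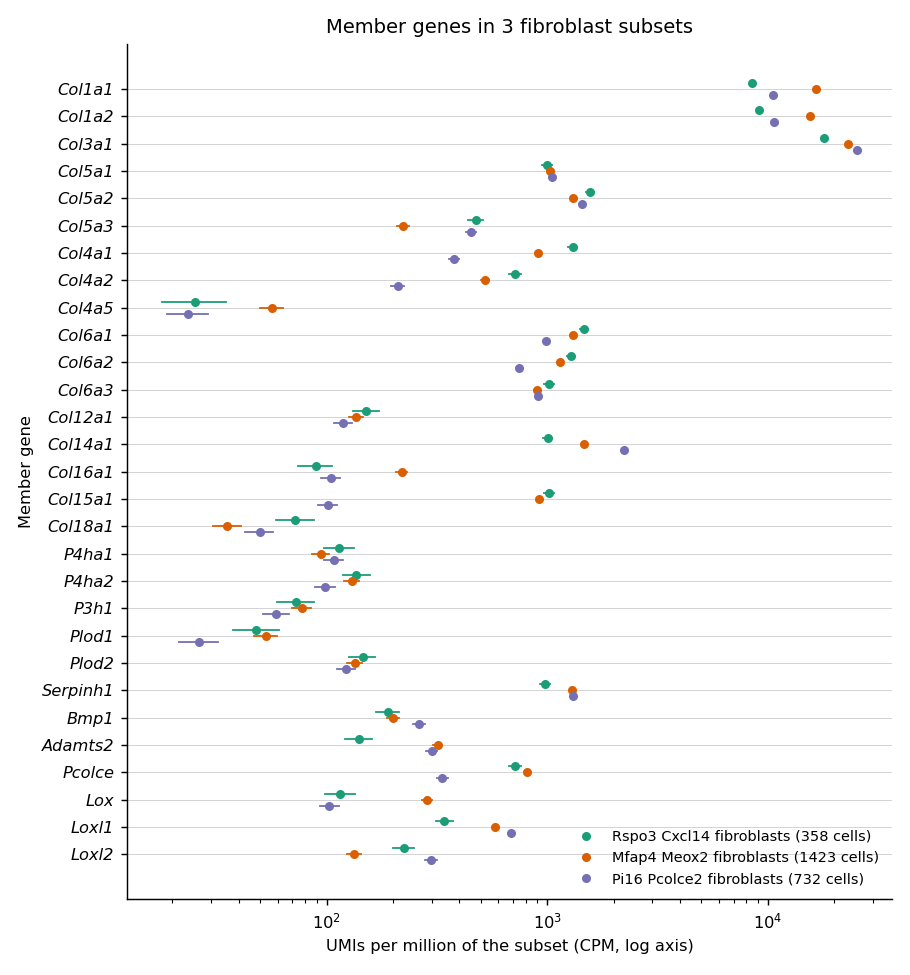
Level of the 29 genes tested in 3 fibroblast subsets, in CPM on a log axis, with exact 95% Poisson intervals that cover counting error only. *Col15a1*, *Col4a1* and *Col4a2* lie far to the left in *Pi16* *Pcolce2* fibroblasts, at 101, 377 and 210 CPM, while *Lox* and *Col16a1* lie to the right in *Mfap4* *Meox2* fibroblasts.

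Among single fibroblasts the 3 main interstitial chains varied together. In 5813 fibroblasts thinned to 800 UMIs, Pearson's r was taken of the log of the count plus 1. It was 0.638 for *Col1a1* and *Col1a2*, 0.559 for *Col1a1* and *Col3a1* and 0.552 for *Col1a2* and *Col3a1*. The median was 0.0536 over the 120 pairs of the 16 genes detected in at least 20% of cells. *Col14a1* and *Col15a1* had the lowest value, -0.125. The cells share 1 library and a fixed total, and pairs with low counts are held near 0 by sampling.

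Cycling fibroblasts, 231 cells with at least 2 UMIs from 2 of *Mki67*, *Top2a*, *Cenpf* and *Birc5*, were set beside 5282 fibroblasts with none. The collagen share was 4.03% (3.997 to 4.062) against 5.63% (5.62 to 5.64). The deeper cycling cells, with a median of 4344 UMIs against 2669, nevertheless held a mean of 246 collagen UMIs per cell against 188. Of the 31 members with at least 100 UMIs, 27 had a lower CPM in cycling cells, and 25 intervals of the ratio lay below 1. Of all 10557 genes with as many UMIs, 5404 (51.2%) had a lower CPM and 16.4% had an interval below 1. The median ratio was 0.749 over the 31 members and 0.992 over these genes. *Serpinh1* stood at 806 CPM against 1278, a ratio of 0.631 (0.594 to 0.670), *P3h1* at 35.5 against 71.6, a ratio of 0.496 (0.366 to 0.658), and *Col1a1* at 7959 against 11934, a ratio of 0.667 (0.654 to 0.680).

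Exceptions were the basement membrane pair and a few others. *Col4a1* had 817 CPM in both groups, a ratio of 1.00 (0.941 to 1.06), and *Col4a2* a ratio of 1.01 (0.934 to 1.10). *Col12a1*, at 171 against 146 CPM, had a ratio of 1.17 (1.02 to 1.33), and *Col23a1*, at 20.6 against 9.33 CPM, a ratio of 2.21 (1.43 to 3.29), the only intervals above 1. The fibroblast marker list was lower too, at 4610 against 6681 CPM. Red blood cell transcripts stood at 10333 against 3940 CPM, epithelial markers at 74.6 against 40.4 CPM, endothelial markers at 63.2 against 37.0 CPM and immune markers at 47.6 against 50.4 CPM, and pancreatic enzyme transcripts took 2.98% against 2.09% of UMIs. Their part in the ratios was not tested, and the demand for UMIs of cycling genes favours deeper cells.

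**Figure D5:**
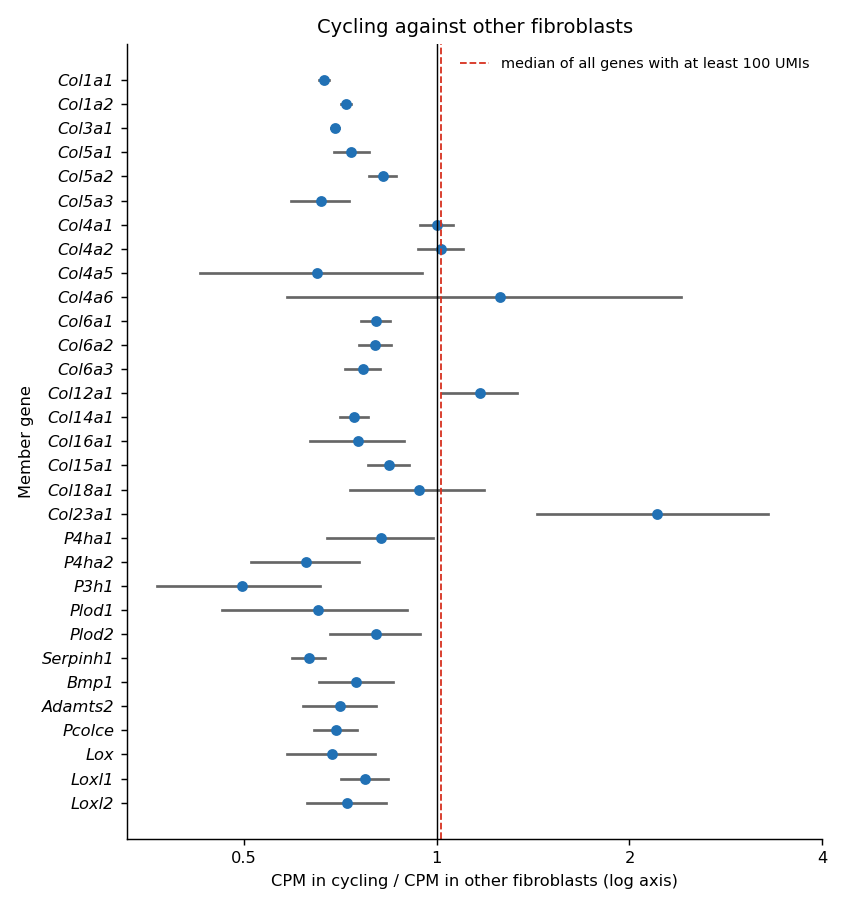
Ratio of CPM in 231 cycling fibroblasts to CPM in 5282 fibroblasts without cycling UMIs for the 31 members with at least 100 UMIs, on a log axis with exact 95% intervals. The dashed line is the median ratio, 1.02, of the 6849 genes with a mean of at least 20 CPM, and 25 of the 31 intervals lie below 1. The legend in the figure wrongly names genes with at least 100 UMIs, whose median was 0.992.

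A list of 68 other collagen pathway genes was read in the same way. Of these, 41 passed the minimum over the 6 classes and 17 were enriched, 6 in mesothelial cells (14.6%), 5 in fibroblasts (12.2%), 4 in Schwann cells (9.76%) and 2 in smooth muscle cells (4.88%), against 3.0%, 1.80%, 3.87% and 3.17% of all genes tested. Mesothelial cells led in *Col4a4*, at 316 CPM, and *Col4a3*, at 84.6 CPM, both known from the kidney's basement membrane, 3.05-fold (1.02 to 15.01) for *Col4a3* and 11.4-fold (3.87 to 55.4) for *Col4a4* over pericytes, where each had 3 UMIs. Also enriched there were *Col6a5*, at 7.91-fold the limit set by 3 UMIs in pericytes, and *Fmod*, a fibril-binding proteoglycan, at 9.74-fold the same limit. Pericytes had no UMI of either, and the lower bounds of the ratios were 6.39 and 7.88. *Tgm2*, a crosslinking transglutaminase, was enriched 2.49-fold (1.70 to 3.80) over smooth muscle cells, and *P3h4* 3.77-fold (3.24 to 4.36) over fibroblasts.

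Fibroblasts led in the fibril-binding *Tnxb*, the collagen-degrading protease *Ctsk*, the collagen uptake receptor *Mrc2*, the collagen receptor *Ddr2* and the folding factor *Fkbp14*. *Tnxb* stood at 566 CPM against 148 CPM in mesothelial cells, 3.81-fold (3.33 to 4.39), and *Ddr2* at 400 CPM against 166 CPM in pericytes, 2.41-fold (1.52 to 4.06). *Ctsk* and *Fkbp14* each had 1 UMI in the next class, pericytes. In Schwann cells *Col20a1* reached 393 CPM, 14.2-fold the limit set by 3 UMIs in pericytes. It had no UMI in pericytes, and the lower bound of the ratio was 11.1. *Col27a1*, at 181 CPM there from 23 UMIs, was 2.45-fold (1.06 to 6.33) over pericytes, which had 8 UMIs. *P3h2*, at 275 CPM from 35 UMIs, was 2.29-fold (1.18 to 4.72) over pericytes, which had 13 UMIs. The integrin gene *Itga2*, at 149 CPM from 19 UMIs, was 4.75-fold (2.64 to 8.22) over endothelial cells. Smooth muscle cells led in *Col19a1*, at 146 CPM from 37 UMIs, and *Tmem38b*, at 94.7 CPM from 24 UMIs. The ratios to pericytes were 7.90 (2.04 to 67.7) for *Col19a1*, which had 2 UMIs there, and 3.42 (1.04 to 17.7) for *Tmem38b*, which had 3. Between fibroblast subsets, 33 of the 68 were tested. *Bgn*, a small proteoglycan, was 3.83-fold higher (3.47 to 4.24) and *Tgm2* 3.01-fold higher (2.02 to 4.64) in *Mfap4* *Meox2* fibroblasts than in the next subset. The proteinase inhibitors *Timp2* and *Timp3* were 2.44-fold (2.35 to 2.55) and 2.34-fold (2.18 to 2.51) higher in *Pi16* *Pcolce2* fibroblasts. *Pcolce2* itself chose that subset and is not read as a result.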

How the data were processed

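The authors captured single cells with 10x 3′ v3.1 chemistry, aligned the reads to the mm10 mouse reference with Cell Ranger 7.1.0 and deposited raw UMI counts per gene and barcode. Their removal of ambient RNA was not repeated, and their upper limit of 10000 UMIs served as an alternative. Here 10947 of the 11789 barcodes were kept and assigned to classes by marker UMIs, as described with the results. Doublets were kept in the values reported. As an alternative, Scrublet in scanpy 1.11.5 marked 537 cells (4.91%) as doublets. UMIs were summed per class and divided by the UMIs of the class (CPM). Intervals are exact at 95%: Poisson for levels, Clopper-Pearson for shares and conditional binomial for ratios of 2 classes. In the calls of enrichment, a class with fewer than 3 UMIs of a gene was set to 3 UMIs. Pooled mice cannot be told apart, and no test was run.

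All 34 genes are named or counted by role, and of the 68 pathway genes those called enriched are named, beside *Col6a6*. Members and lists were chosen with earlier results of these data known, and the limits of the gates were set after marker sums had been seen. Computation used Python 3.11.15, numpy 2.4.6, scipy 1.17.1 and pandas 2.3.3, and the interval and enrichment functions were tested on simulated data. Gene positions are from GENCODE M21 on GRCm38, and promoter windows from RefSeq. The alternatives were 12 planned ones and 1 added after seeing the data.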

Additional observations from a re-analysis of the deposited data

How the results depend on the processing

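With a single library no replicate could be left out, and no paired analysis was possible because there is only 1 sample. The collagen share of fibroblasts, 5.50%, was 5.55% with an upper limit of 10000 UMIs, 5.52% with a lower limit of 1500 UMIs, 5.59% without cells marked as doublets, 5.54% with 5 marker UMIs required, 5.65% with a gate that left out matrix genes, 5.41% with classes from clusters, 5.76% without enzyme, globin and mitochondrial UMIs in the denominator, 5.37% after subtraction of the immune cell level, 5.46% as a mean over cells and 5.42% with a looser 2-fold gate, which was added after seeing the data. The number of the 34 genes enriched in 1 class, 9, ran from 8 to 12 except under a 3-fold limit, where it was 5, with 4 in fibroblasts. The 1 gene enriched in Schwann cells became 0 with the 1500 UMI limit, with 5 marker UMIs, with clusters and under the 3-fold limit. Endothelial cells gained to 3 and mesothelial cells to 2 with clusters, where smooth muscle cells and pericytes formed no cluster of their own and left the comparison. Endothelial cells had 2 by means over cells, and pericytes 1, *Col8a1*, with the looser gate. The 3 genes enriched in *Mfap4* *Meox2* fibroblasts, which are all those enriched in a subset, were 1 with clusters and 0 under the 3-fold limit, and *Rspo3* *Cxcl14* fibroblasts had 1, *Col23a1*, with a minimum of 10 CPM. For changes not named with a cause, the cause was not tested. Among log2 differences of members between fibroblasts and the highest other class, 298 values stayed within their interval and 53 left it, and no difference of at least 2-fold changed sign. Depth limits the 49 smooth muscle cells, 51 pericytes and 63 Schwann cells most, where 1 UMI of a gene stands for 3.95, 9.24 and 7.86 CPM.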
